A study of Mus musculus with 16 samples.

Results

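The genes described here are those of the NRF2 pathway and of antioxidant defence, measured by RNA-seq in mouse C17.2α neural cells exposed for 24 h to strobilurin fungicides. The set was a list of 40 gene symbols, which covers NRF2 and its partners, NRF2 target enzymes and transporters, and the glutathione, thioredoxin, peroxiredoxin, superoxide dismutase, ferritin and NADPH-producing genes. All 40 were among the 54658 symbols of the count tables. Of these, 39 had a mean level of 1 CPM or more (CPM, counts of a gene relative to the library's total, whose size was adjusted by a TMM factor) over 15 distinct libraries. The exception was Gsta4, a glutathione transferase, which had no read in 11 of 15 libraries. All comparisons were tested over the 14004 genes that passed the same minimum.

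C17.2 is a cell line from mouse cerebellum, and the C17.2α cells used here were engineered to express the thyroid hormone receptor TRα1, also in the controls. They were grown in serum stripped of thyroid hormone, and T3 was not added in this experiment. Cells of the 2 control libraries received the solvent DMSO. Azoxystrobin was given at 100 or 1000 nM, and each of the other compounds (picoxystrobin, pyraclostrobin and trifloxystrobin) at 30, 100, 300 or 1000 nM. Each concentration had 1 library, so that neighbouring concentrations stand as replicates, and nothing in the labels says that the libraries came from separate cultures. The p-values therefore measure only the spread between these libraries, which may be technical. Where libraries of different concentrations are pooled in a group, that spread also holds the differences between concentrations.

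The total count ranged from 12292390 to 18188099 over the 15 distinct libraries. Counts of azoxystrobin at 100 nM were identical to those of the second DMSO library in every gene, which no other pair of libraries approached (22355 or more genes differed), and that library was left out. All comparisons with DMSO share the same 2 control libraries. Neural progenitor markers were present (Nes at 138 to 202 CPM, Sox2 at 33.7 to 46.4 CPM), Pax6 did not exceed 0.126 CPM, and the neuronal marker Rbfox3, the astrocyte marker Aqp4 and the leukocyte marker Ptprc had no read. The collagen gene Col1a1, a marker of fibroblasts, was high, at 1725 to 4730 CPM. In such bulk samples, fewer cells of a type and less RNA per cell cannot be told apart.

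NRF2, encoded by Nfe2l2, is a transcription factor that is kept low in unstressed cells by KEAP1, an adaptor that presents it to a ubiquitin ligase. Electrophiles and oxidants modify KEAP1, and NRF2 then accumulates, pairs with small MAF proteins such as MAFG, and binds antioxidant response elements near genes for detoxification, glutathione and thioredoxin systems and NADPH supply. This control acts largely on the protein, so the Nfe2l2 transcript is only a part of it. Strobilurins are fungicides that bind complex III of the respiratory chain, a site from which superoxide can be released. In neural tissue the pathway is known mainly for its activity in glia.

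The core of the antioxidant response element is commonly written TGACNNNGC, where N is any base. It was searched on both strands of a window from 250 bases before to 50 bases after each gene start (RefSeq, GRCm38.p6), in which 34 of the 39 kept members had an entry. The motif was found in 11 of these 34 members (32.4%) and in 14% of 27025 genes. The list includes NRF2 targets by design, so its larger share was not an independent result. Of the 8 members with an entry that were higher at high concentrations of pyraclostrobin, as described below, 4 held the motif (50%). It was also found in Abcc4, G6pdx, Mafg, Nfe2l2, Pgd, Sod1 and Txnrd1, which were not called higher there. The stretches around the motif are shown for the 4 members that both held it and were higher. They lie at chr4:116685440-116685500 on the + strand for Prdx1, chr3:122245397-122245457 on the + strand for Gclm, chr9:86695902-86695930 on the - strand for Me1, and chr2:152105542-152105570 on the + strand for Srxn1. Each is written 5′ to 3′ on the strand of the gene, with the motif in capitals. It reads as its reverse complement in Prdx1, Gclm and Srxn1.
Prdx1: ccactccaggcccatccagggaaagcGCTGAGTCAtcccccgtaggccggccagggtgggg
Gclm: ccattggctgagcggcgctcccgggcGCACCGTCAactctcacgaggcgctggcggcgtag
Me1: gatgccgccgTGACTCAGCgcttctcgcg
Srxn1: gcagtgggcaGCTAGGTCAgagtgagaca
By GENCODE M21 (GRCm38), Prdx1 spans chr4:116685544-116700822, Gclm chr3:122245557-122270732, Me1 chr9:86581371-86695953 and Srxn1 chr2:152105516-152111376, so that the first pair of stretches lies upstream of the gene and the other pair within the annotated gene, at its 5′ end. The distances that follow are counted from the RefSeq start, which need not be the GENCODE start. In Prdx1 the motif begins 133 bases before the RefSeq start and in Gclm 134 bases before it. In Me1 it begins 6 bases before it, and in Srxn1 it lies in the first bases of the transcript. A match is a description of these letters and not a measured binding site.

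In the DMSO libraries the members covered a wide range of levels. Per kilobase of the longest transcript, the mean CPM was highest for Fth1, the heavy chain of the iron store ferritin, at 1231, followed by the glutathione peroxidase Gpx1 at 404 and the peroxiredoxin Prdx6 at 284. Nfe2l2 stood at 87.3, Keap1 at 8.59 and Nqo1 at 4.31 on this scale. The ferritin light chain Ftl1 stood at 5.43 and the peroxidase Gpx4 at 5.02, but 90.6% and 61.7% of their 50-base words also occur in other annotated genes, mostly pseudogenes, so reads of these genes may have been lost or split in the counting. The same share was 62.3% for Gstp1, 32.8% for Me1, 23.8% for Prdx2, 23.1% for Gstm1, and 13.1% or less for the other members.

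High concentrations of pyraclostrobin were first compared with low ones, without use of the controls. Of the 39 members, 13 differed between 300 and 1000 nM and 30 and 100 nM (33.3%, edgeR, Benjamini-Hochberg adjusted p under 0.05), beside 21.7% of all genes tested. Nqo1, Glrx, Gclc, Me1, Srxn1, Prdx1, Sod2, Fth1 and Gclm were higher at the high concentrations (9 members, beside 11.1% of all genes), and Osgin1, Txn2, Tkt and Abcc1 were lower (4 members, beside 10.6% of all genes). The changes were modest, the largest being 1.64-fold for Nqo1. The median log2 change was 0.000591 over the 39 members, which went in both directions, and -0.00481 over all genes. Both high libraries were above both low libraries in 15 members and below them in 16, beside 31.5% and 32.2% of all genes.

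**Figure D1:**
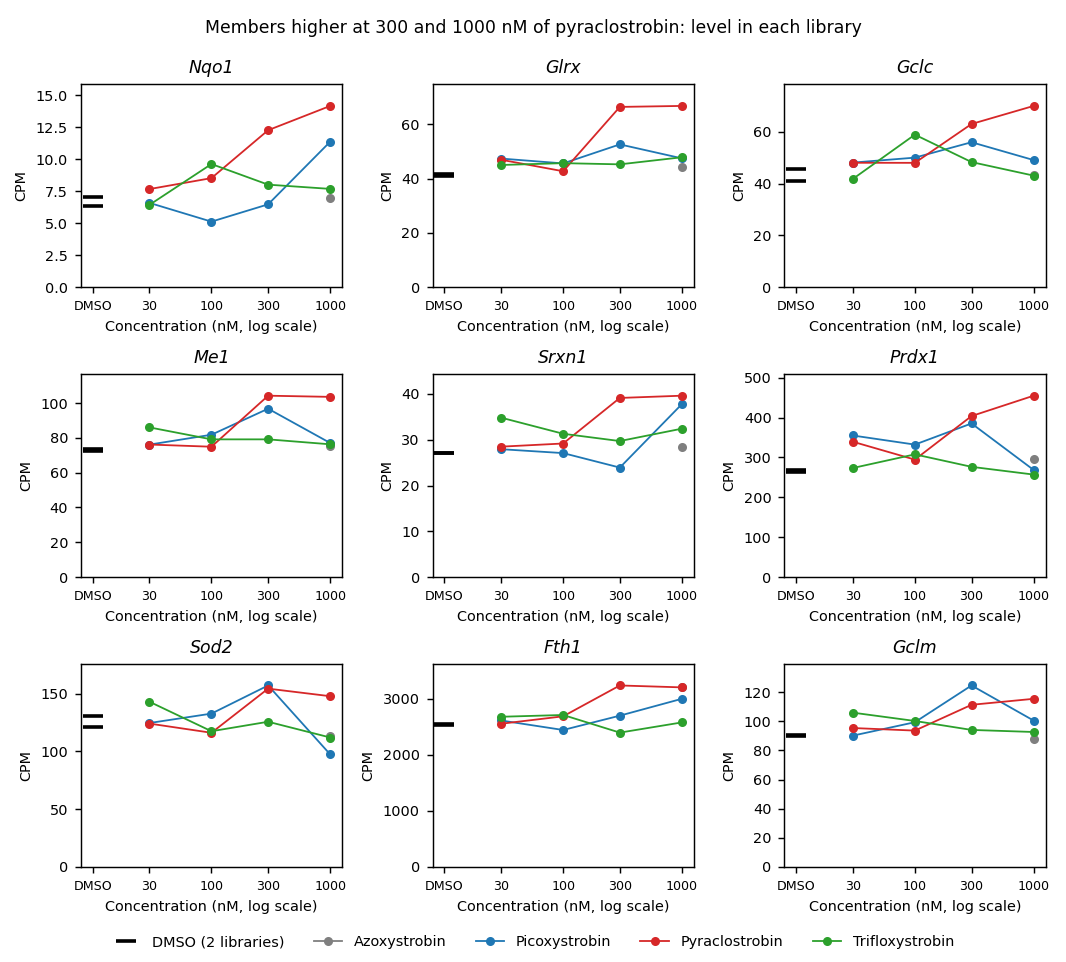
Level in CPM (vertical axis, from 0) of the 9 members that were higher at 300 and 1000 nM of pyraclostrobin, against concentration in nM (log axis), with black bars for the 2 DMSO libraries and 1 point per library for each compound. The red pyraclostrobin points at 300 and 1000 nM lie above both DMSO bars in all 9 panels, and those of Nqo1 reach 12.3 and 14.2 CPM beside 8.01 and 7.68 CPM for trifloxystrobin (green) at the same concentrations.

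The counts depended on single libraries, for the members as for all genes. Without pyraclostrobin at 30, 100, 300 or 1000 nM, 6, 5, 11 and 3 members were called, respectively, beside 1598, 1534, 2476 and 863 of all 14004 genes (6.16% to 17.7%). The summed level of the fibroblast markers (Col1a1, Col1a2 and Pdgfra) was 5198 and 5874 CPM in the controls. With pyraclostrobin it was 3874 and 4051 CPM at the low and 2568 and 2275 CPM at the high concentrations. Its part in the results was not tested. The 6 neural progenitor markers summed to 2743 to 3103 CPM over the same 4 pyraclostrobin libraries and to 3112 and 3205 CPM in the DMSO libraries. Most of this sum was Vim, which alone was at 2486 to 3244 CPM over the 15 libraries.

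Among the 3 genes of the NRF2 system, none passed the test in this comparison. Nfe2l2 was at 222 and 210.1 CPM in the DMSO libraries and at 215, 234, 254 and 255 CPM with pyraclostrobin at increasing concentrations. The log2 difference between high and low concentrations was 0.18 ± 0.08 (SE, adjusted p = 0.134). Keap1 was at 33.1 and 29.0 CPM with DMSO and at 31.5, 31.6, 29.2 and 26.1 CPM with pyraclostrobin (-0.19 ± 0.10, adjusted p = 0.209). The Nfe2l2 level of both high libraries lay above the controls, and the Keap1 level of both lay below the low concentrations. Neither gene passed the correction between high and low concentrations. Against DMSO, Nfe2l2 passed at the high concentrations in a split chosen after seeing the data, given below. Mafg was at 54 and 57 CPM with DMSO, and its log2 difference was -0.25 ± 0.10 (adjusted p = 0.0903).

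Among the 7 target enzymes and transporters, 2 were higher and 2 were lower. Nqo1, a quinone reductase widely used as a reporter of NRF2 activity, was at 7.04 and 6.35 CPM with DMSO and at 7.67, 8.52, 12.3 and 14.2 CPM at increasing concentrations of pyraclostrobin. Both high libraries stood above the other 13 libraries, the next being picoxystrobin at 1000 nM with 11.4 CPM. Its level was 8.09 ± 0.606 CPM at the low and 13.2 ± 1.34 CPM at the high concentrations (SD, n = 2 each), a log2 change of 0.71 ± 0.18 (SE, adjusted p = 0.0106). With the other compounds Nqo1 was at 6.59, 5.13 and 6.48 CPM at 30 to 300 nM of picoxystrobin, at 6.43, 9.62, 8.01 and 7.68 CPM with trifloxystrobin, and at 6.95 CPM with azoxystrobin. The call was lost without the 30 or the 1000 nM library (log2 change of 0.60 to 0.81 over the 4 omissions).

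Srxn1, the sulfiredoxin that repairs overoxidized peroxiredoxins, was at 27.1 and 27.0 CPM with DMSO and at 28.5, 29.2, 39.1 and 39.6 CPM with pyraclostrobin. The low concentrations were close to the controls and the high ones formed a separate level, 0.45 ± 0.09 higher on the log2 scale (adjusted p = 0.00339), a call that held whichever pyraclostrobin library was left out. It was at 27.9, 27.1, 23.9 and 37.8 CPM with picoxystrobin, at 34.8, 31.3, 29.7 and 32.4 CPM with trifloxystrobin, and at 28.4 CPM with azoxystrobin. Of these, picoxystrobin at 1000 nM came nearest to the high pyraclostrobin libraries.

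Osgin1, an oxidative stress-induced growth inhibitor, moved the other way, with 15.3 and 13.5 CPM with DMSO and 13.0, 15.5, 9.73 and 10.2 CPM with pyraclostrobin. It fell by 0.51 on the log2 scale (SE 0.14, adjusted p = 0.0193), and the call remained only without the 30 nM library. It was at 11.8, 12.1, 8.59 and 16.8 CPM with picoxystrobin, at 11.3, 13.7, 12.1 and 13.7 CPM with trifloxystrobin, and at 12.0 CPM with azoxystrobin. Its lowest level was thus with picoxystrobin at 300 nM and its highest at 1000 nM. The export pump gene Abcc1 fell by 0.25 (SE 0.07, adjusted p = 0.0228). Hmox1, the heme oxygenase gene and another classic NRF2 target, was not called in any comparison: it was at 73.3 and 79.3 CPM with DMSO and at 54.3, 70.2, 70.1 and 71.6 CPM with pyraclostrobin (0.19 ± 0.17, adjusted p = 0.449). The biliverdin reductase Blvrb and the export pump Abcc4 did not pass any test either.

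Among the 9 measured glutathione genes, 3 were higher and none was lower. Gclc and Gclm encode the catalytic and modifier subunits of glutamate-cysteine ligase, the first and limiting step of glutathione synthesis. Gclc was at 45.8 and 40.9 CPM with DMSO and at 48.1, 48, 63.0 and 70.0 CPM with pyraclostrobin (log2 change of 0.47 ± 0.13, adjusted p = 0.0171). The high libraries stood above all others, where it was at 48.1, 50, 56 and 49.1 CPM with picoxystrobin, at 41.8, 58.9, 48.3 and 43.1 CPM with trifloxystrobin, and at 43.3 CPM with azoxystrobin. Gclm was at 90.6 and 90 CPM with DMSO and at 95.4, 93.6, 111 and 115 CPM with pyraclostrobin (0.26 ± 0.07, adjusted p = 0.0199). It reached 125 CPM with picoxystrobin at 300 nM, beside 90.1, 99.3 and 100.5 CPM at its other concentrations, so its highest value was not with pyraclostrobin. With trifloxystrobin it was at 106, 100.2, 94.1 and 92.6 CPM, and with azoxystrobin at 87.6 CPM. Both calls were lost without the 30, the 100 or the 1000 nM library, with log2 changes of 0.39 to 0.54 for Gclc and 0.24 to 0.29 for Gclm.

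Glrx, the cytosolic glutaredoxin that reduces glutathionylated proteins, had the smallest p-value of the members. It was at 41.7 and 40.9 CPM with DMSO and at 46.9, 42.7, 66.4 and 66.7 CPM with pyraclostrobin. The step lay between 100 and 300 nM, from 44.8 ± 2.99 to 66.5 ± 0.258 CPM (SD, n = 2 each), a log2 change of 0.57 ± 0.08 (adjusted p = 0.000334). It was at 47.4, 45.6, 52.6 and 47.4 CPM with picoxystrobin, at 45, 45.7, 45.2 and 47.8 CPM with trifloxystrobin, and at 44.2 CPM with azoxystrobin. No library outside the high pyraclostrobin pair exceeded 52.6 CPM, and the call held in all 4 omissions. Gpx1 (0.22 ± 0.08, adjusted p = 0.0771), Gss, Gsr, Gpx4, Gstm1 and Gstp1 were not called.

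Of the 10 thioredoxin and peroxiredoxin genes, 1 was higher and 1 was lower. Prdx1, a cytosolic peroxiredoxin that removes hydrogen peroxide, was at 263 and 269 CPM with DMSO and at 339.5, 295, 404 and 455 CPM with pyraclostrobin. All 4 libraries stood above the controls and the high ones above the low ones, by 0.44 ± 0.09 on the log2 scale (adjusted p = 0.00393). It was at 355, 332, 385 and 269 CPM with picoxystrobin, at 274, 308, 277 and 257 CPM with trifloxystrobin, and at 296 CPM with azoxystrobin. The picoxystrobin libraries from 30 to 300 nM thus stood apart from that at 1000 nM, which was at the level of the controls. The high-against-low call was lost without the 100 or the 1000 nM library, with log2 changes of 0.34 to 0.54. Some reads of Prdx1 could belong to pseudogenes, since 10.9% of its 50-base words are shared.

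Txn2, the mitochondrial thioredoxin, was at 346 and 322 CPM with DMSO and at 306, 318, 262 and 234 CPM with pyraclostrobin. It fell by 0.33 on the log2 scale (SE 0.08, adjusted p = 0.00781), a call lost without the 100 or the 1000 nM library (-0.42 to -0.25). It was at 253, 259, 225 and 277 CPM with picoxystrobin, below both controls at every concentration, at 323, 314, 347 and 318 CPM with trifloxystrobin, and at 356 CPM with azoxystrobin. The cytosolic Txn1 and its reductase Txnrd1, also a known NRF2 target, were not called in any comparison: Txnrd1 was at 273 and 257 CPM with DMSO and at 286, 267, 252 and 262 CPM with pyraclostrobin (-0.11 ± 0.09, adjusted p = 0.434). Txnrd2, Prdx2, Prdx3, Prdx4 and Prdx6 were not called in any comparison, and Prdx5 was called only against DMSO.

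Sod2, the superoxide dismutase of the mitochondrial matrix, was at 121 and 131 CPM with DMSO and at 124, 116, 154 and 148 CPM with pyraclostrobin (0.33 ± 0.10, adjusted p = 0.0238). Its call was lost whichever library was left out (0.28 to 0.38). The highest level of Sod2 was with picoxystrobin at 300 nM, in a series of 125, 133, 157 and 97.4 CPM, and it was at 143, 117, 126 and 112 CPM with trifloxystrobin and 113 CPM with azoxystrobin. The cytosolic Sod1 and the catalase gene Cat were not called in any comparison.

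Fth1 was at 2551 and 2528 CPM with DMSO and at 2558, 2690.4, 3242 and 3208 CPM with pyraclostrobin. The high pair stood above the low pair by 0.30 ± 0.07 on the log2 scale (adjusted p = 0.00826), a call lost without the 30 or the 1000 nM library (0.26 to 0.33). Azoxystrobin at 1000 nM gave 3212 CPM, within the range of the high pyraclostrobin pair. Fth1 was at 2616, 2446, 2702 and 3004 CPM with picoxystrobin and at 2682, 2714, 2399 and 2582 CPM with trifloxystrobin. Ftl1, with 2.95 to 5.89 CPM over all libraries, was not called.

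The 5 NADPH and pentose phosphate genes did not share a direction. Me1, the cytosolic malic enzyme, was at 72.5 and 73.6 CPM with DMSO and at 76.2, 74.9, 104 and 104 CPM with pyraclostrobin (0.46 ± 0.07, adjusted p = 0.000871). Both low libraries were slightly above the controls. As for Glrx, the step lay between 100 and 300 nM, and the call held in all 4 omissions. It was at 76.1, 81.8, 96.8 and 77 CPM with picoxystrobin, at 86.0, 79.1, 79.1 and 76.3 CPM with trifloxystrobin, and at 75.2 CPM with azoxystrobin. Reads of Me1 and its pseudogenes could not be told apart from the tables. Tkt, the transketolase of the non-oxidative branch, was at 148 and 138 CPM with DMSO and at 136, 148, 118 and 109.9 CPM with pyraclostrobin. It fell by 0.31 (SE 0.09, adjusted p = 0.0291), a call that remained only without the 300 nM library (-0.37 to -0.25 over the omissions). It was at 116, 117, 104 and 161 CPM with picoxystrobin, at 149, 121, 148 and 159 CPM with trifloxystrobin, and at 149 CPM with azoxystrobin. G6pdx and Pgd, the dehydrogenases of the oxidative branch, and Taldo1 were not called in this comparison.

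**Figure D2:**
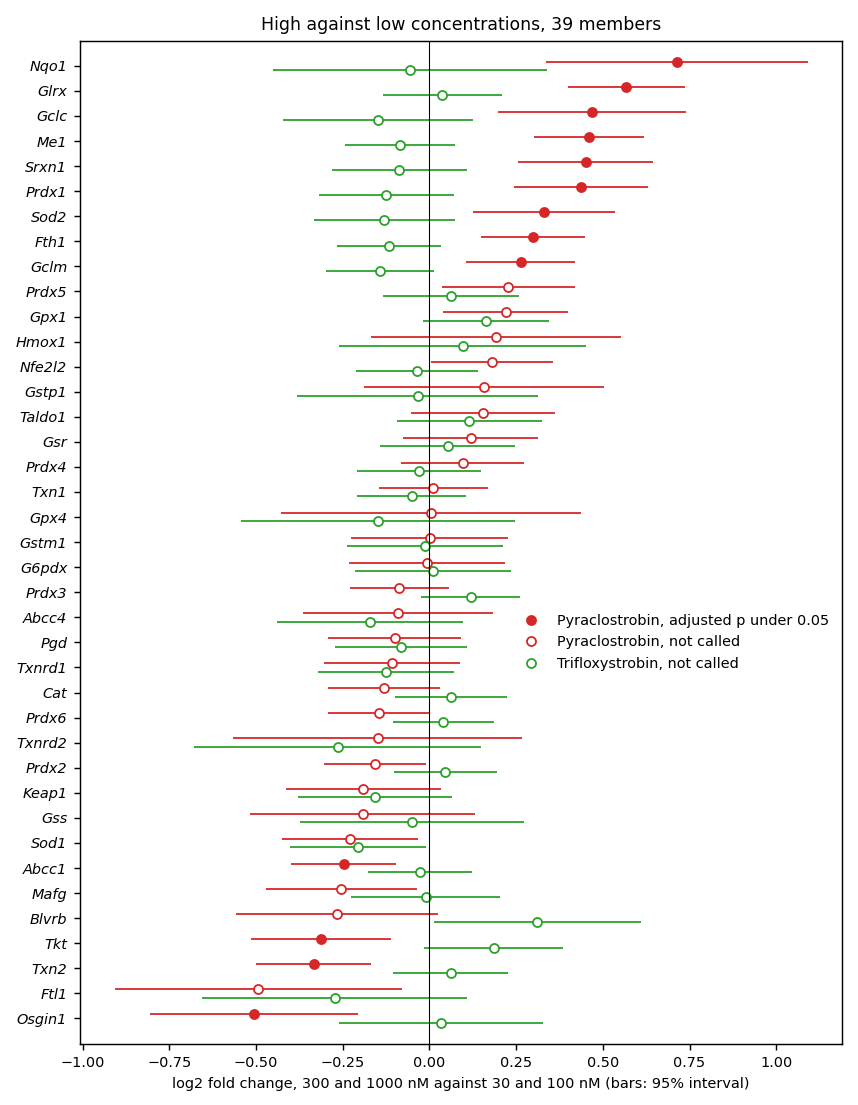
Log2 fold change between 300 and 1000 nM and 30 and 100 nM (horizontal axis, bars are 95% intervals) for the 39 members, in pyraclostrobin (red) and trifloxystrobin (green), with filled points for an adjusted p under 0.05. The 9 members at the top have red intervals wholly above 0, up to 0.71 for Nqo1, and no trifloxystrobin point is filled.

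Trifloxystrobin did not give such a step. In the same model, 0 of 39 members differed between its high and low concentrations, beside 0% of all genes (edgeR, 0 of 14004), while 2 members (Blvrb and Sod1) and 853 genes had an unadjusted p under 0.05. DESeq2 called 0 members and 1 gene. The log2 change was -0.06 for Nqo1 (95% interval -0.45 to 0.34) and -0.12 for Prdx1 (-0.32 to 0.07), so that changes of the size seen with pyraclostrobin lay outside both intervals.

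The difference between the responses to the 2 compounds was tested directly, as the high-against-low change with pyraclostrobin minus that with trifloxystrobin. It passed in 10 members, beside 9.07% of all genes. The change was greater with pyraclostrobin in 8 (4.63% of all genes), led by Gclc (0.62 ± 0.18, adjusted p = 0.0465), Prdx1 (0.56 ± 0.13, adjusted p = 0.0169), Me1 (0.55 ± 0.11, adjusted p = 0.00771), Srxn1 (0.54 ± 0.13, adjusted p = 0.0202) and Glrx (0.53 ± 0.11, adjusted p = 0.0121), and also in Sod2, Fth1 and Gclm. It was lower in Tkt (-0.50 ± 0.13, adjusted p = 0.0323) and Txn2 (-0.40 ± 0.11, adjusted p = 0.0376), beside 4.43% of all genes. Nqo1 had the largest difference (0.77, 95% interval 0.22 to 1.32) but did not pass the correction (adjusted p = 0.0738). The count was 3, 1, 8 and 1 without pyraclostrobin at 30, 100, 300 and 1000 nM, beside 4.48%, 3.03%, 9.05% and 1.41% of all genes. It was 11, 7, 2 and 4 without trifloxystrobin at these concentrations, beside 17.5%, 6.30%, 3.11% and 3.71% of all genes. Me1 was called in all 8 of these fits, Prdx1 and Glrx in 5, Srxn1 and Fth1 in 4, Gclm in 3, Tkt and Txn2 in 2, and Gclc and Sod2 in 1. The difference for Gclc was 0.34 without trifloxystrobin at 100 nM and 0.83 without that at 30 nM, where alone the call held.

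**Figure D3:**
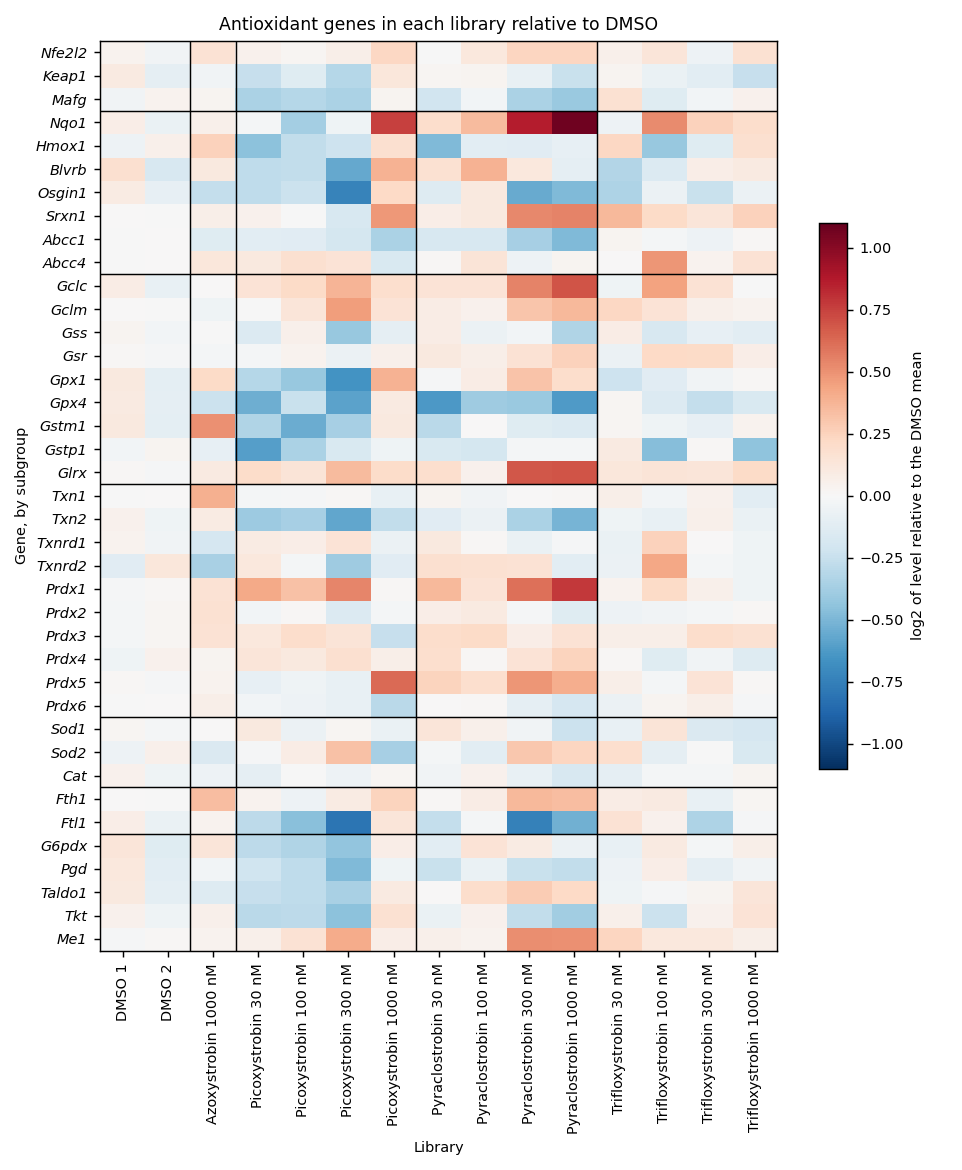
Log2 level of each of the 39 members (rows, by subgroup) in each of the 15 libraries (columns) relative to the mean of the 2 DMSO libraries, from blue (below) to red (above). Red cells of Nqo1, Srxn1, Gclc, Glrx, Prdx1 and Me1 stand at 300 and 1000 nM of pyraclostrobin, and blue cells of Gpx1, Txn2, Tkt and Osgin1 at 300 nM of picoxystrobin. Much of this is shared. Txn2, Tkt and Osgin1, but not Gpx1, are also blue at 300 and 1000 nM of pyraclostrobin. Gclc, Glrx, Prdx1 and Me1, but not Nqo1 or Srxn1, are also red at 300 nM of picoxystrobin.

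Against DMSO, the 4 pyraclostrobin libraries as a group differed in 3 members (7.69%), near the 8.60% of all genes. Prdx1 was 0.49 ± 0.13 higher on the log2 scale (adjusted p = 0.0392), Prdx5, a peroxiredoxin found in mitochondria and peroxisomes, was 0.34 ± 0.10 higher (adjusted p = 0.0431), and Abcc1 fell by 0.30 (SE 0.08, adjusted p = 0.0415). Prdx5 was at 28.3 and 27.7 CPM with DMSO and at 33.2, 31.8, 39.2 and 37.0 CPM with pyraclostrobin, and Abcc1 was at 139.8 and 141 CPM with DMSO and at 124, 124, 109 and 100.4 CPM. In both genes all 4 libraries lay on the same side of the controls. Reads of Prdx5 and of Trmt112, which overlaps it on the opposite strand, could not be told apart. Since the response was mostly at high concentrations, the split was repeated as an alternative chosen after seeing the data. With 300 and 1000 nM alone, 20 members were called, 12 higher and 8 lower, beside 40.3% of all genes, and with 30 and 100 nM alone, 0 members were called by edgeR, beside 2.02% of all genes (5 members at an unadjusted p under 0.05). At the high concentrations Nqo1 was 0.98 ± 0.18, Prdx1 0.69 ± 0.09, Glrx 0.69 ± 0.08 and Gclc 0.62 ± 0.13 above DMSO on the log2 scale, and Nfe2l2 was 0.24 ± 0.08 above it (adjusted p = 0.0332).

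Without the first or the second DMSO library, or without the 300 or the 1000 nM pyraclostrobin library, no member was called against DMSO, beside 0.0143%, 0%, 0.871% and 3.18% of all genes. Without the 30 or the 100 nM library 7 and 10 were called, beside 17.3% and 20.1% of all genes. Prdx1 kept its direction in all of these fits, with log2 changes of 0.38 to 0.59.

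Picoxystrobin at 30 to 300 nM differed from DMSO in 7 of 39 members (17.9%), near the 19.2% of all genes. Only Prdx1 was higher (0.43 ± 0.14, adjusted p = 0.0450, 9.13% of all genes higher), a call lost whichever DMSO or picoxystrobin library was left out (0.37 to 0.48). Gpx1, which reduces hydrogen peroxide with glutathione, was at 466 and 400.3 CPM with DMSO and at 347, 324 and 273 CPM at 30, 100 and 300 nM, and it fell by 0.46 (SE 0.11, adjusted p = 0.0156). Txn2 fell by 0.44 (SE 0.11, adjusted p = 0.0165), with all 3 libraries below both controls. The glutathione transferase Gstm1 was at 148 and 128 CPM with DMSO and at 109, 94.4 and 107 CPM with picoxystrobin, and it fell by 0.41 (SE 0.10, adjusted p = 0.0116). G6pdx, Mafg and Pgd fell by 0.36, 0.34 and 0.33 (adjusted p = 0.0231, 0.0418 and 0.0309), so that 6 members were lower, beside 10.0% of all genes. G6pdx was at 176 and 147 CPM with DMSO and at 131, 128 and 119 CPM with picoxystrobin. The fibroblast markers summed to 4288, 4466 and 4461 CPM in these 3 libraries, below both controls (5198 and 5874 CPM), and their part in the results was not tested.

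These picoxystrobin values moved with the base composition of the genes. Over 13929 genes with a known GC content, the log2 level relative to DMSO correlated with GC content at r = -0.529, -0.603 and -0.668 in the libraries at 30, 100 and 300 nM, which all share the same 2 controls, and at r = 0.165 in that at 1000 nM. The other compounds lay between -0.306 and -0.0382, and the DMSO libraries at 0.278 and -0.278. When the trend of each library with these gene properties (GC content and length) was removed, 0 members were called (5 at an unadjusted p under 0.05), beside 1.56% of all genes. Mafg went from -0.34 to -0.04 and Prdx1 from 0.43 to 0.15, while Pgd stayed at -0.34 (adjusted p = 0.0755) and Gstm1 was at -0.30 (adjusted p = 0.0857). No member was called without the first DMSO library (0% of all genes), 5 without the second (10.1%), 5 and 4 without picoxystrobin at 30 and 100 nM (18.6% and 13.1%), and 1 without that at 300 nM (5.36%). For pyraclostrobin, the same correction raised the members called between high and low concentrations from 13 to 17, beside 22.3% of all genes. Some of these were thus newly called, whereas Gclm was no longer called. Nqo1 was at 0.64, Glrx at 0.51, Srxn1 at 0.47, Me1 at 0.36 and Prdx1 at 0.30.

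**Figure D4:**
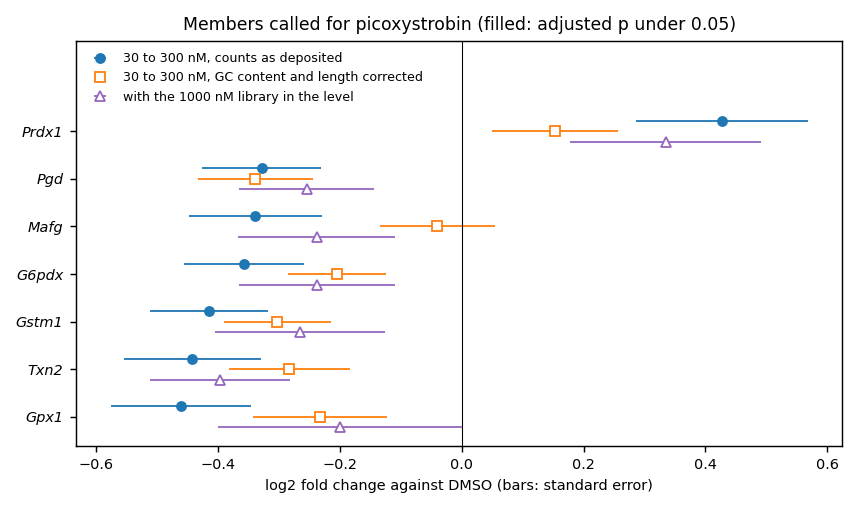
Log2 fold change against DMSO (horizontal axis, bars are standard errors) of the 7 members called for picoxystrobin at 30 to 300 nM, from the deposited counts (blue circles), after removal of the GC and length trend (orange squares), and with the 1000 nM library included (purple triangles). Filled points have an adjusted p under 0.05, and only the blue circles are filled. Gpx1 moves from -0.46 to -0.23 and -0.20.

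Picoxystrobin at 1000 nM differed from the lower concentrations in several members. Gpx1 was at 563 CPM in this library, above both controls, Gstm1 was at 149 CPM, and Prdx5 was at 43.2 CPM, its highest level in any library. Nqo1 and Prdx5 were more than 1.5-fold above the DMSO mean there, and no member was more than 1.5-fold below it. At 300 nM, by contrast, Osgin1, Gpx1, Gpx4 and Ftl1 were more than 1.5-fold below the DMSO mean and none above it. As each is 1 library, these are descriptions with no test. With this library included in the picoxystrobin group, edgeR called 0 members against DMSO (3 at an unadjusted p under 0.05), beside 0.0286% of all genes.

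Trifloxystrobin and azoxystrobin gave no call among these genes. For the 4 trifloxystrobin libraries against DMSO, edgeR called 0 members, beside 0% of all genes, 0 members and 444 genes had an unadjusted p under 0.05, and DESeq2 called 0. The 95% interval of the log2 difference was -0.24 to 0.74 for Nqo1 and -0.21 to 0.35 for Prdx1. For azoxystrobin at 1000 nM, a single library whose spread is taken from the other groups, edgeR also called 0 members, beside 0% of all genes. Gstm1, Txn1 and Fth1 (3 members) and 529 genes had an unadjusted p under 0.05, and DESeq2 called 0 members and 2 genes. Gstm1 was at 195 CPM and Txn1 at 335 CPM with azoxystrobin, the highest level of each in any library.

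The compounds were also compared in pairs at matched concentrations, with concentration as a block, which gives 3 pairs of compounds. All pairs came from the same model of 11 libraries. The 1000 nM libraries of pyraclostrobin and trifloxystrobin thus also entered the comparisons with picoxystrobin. Picoxystrobin, like azoxystrobin, is a methoxyacrylate, trifloxystrobin is an oximinoacetate, and pyraclostrobin is a methoxycarbamate. Pyraclostrobin and trifloxystrobin differed in 0 of 39 members over 30 to 1000 nM (edgeR, beside 0.171% of all genes), with 12 members at an unadjusted p under 0.05, and DESeq2 called 2 (Prdx1 and Abcc1), beside 3.67% of all genes. The log2 difference was 0.40 for Prdx1 (95% interval 0.16 to 0.65), 0.40 for Nqo1 (0.01 to 0.79) and -0.29 for Abcc1 (-0.45 to -0.13). Without trifloxystrobin at 100 nM or pyraclostrobin at 100 nM, 8 and 3 members were called, beside 14.3% and 8.07% of all genes. Pyraclostrobin and picoxystrobin, the latter at 30 to 300 nM, differed in 0 members (beside 0.0286% of all genes), with 10 members at an unadjusted p under 0.05. DESeq2 called 6, beside 6.67% of all genes. The difference was 0.58 for Gpx1 (95% interval 0.34 to 0.81) and 0.45 for Taldo1 (0.24 to 0.65), both higher with pyraclostrobin, and 0.02 for Prdx1 (-0.26 to 0.30). Without picoxystrobin at 30 nM or pyraclostrobin at 1000 nM, 3 and 4 members were called, beside 2.66% and 3.99% of all genes.

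Picoxystrobin at 30 to 300 nM and trifloxystrobin differed in 4 members, beside 7.53% of all genes, and all 4 were lower with picoxystrobin. The log2 difference was -0.46 ± 0.10 for Txn2 (adjusted p = 0.0333), -0.38 ± 0.09 for Gstm1 (adjusted p = 0.0384), -0.37 ± 0.08 for G6pdx (adjusted p = 0.0354) and -0.31 ± 0.08 for Pgd (adjusted p = 0.0411). No member was called after correction for GC content and length, beside 0% of all genes. The count was 5, 0 and 0 without picoxystrobin at 30, 100 and 300 nM, beside 5.73%, 0% and 0% of all genes. It was 1, 8, 0 and 1 without trifloxystrobin at 30, 100, 300 and 1000 nM, beside 1.81%, 18.6%, 0% and 2.65% of all genes.

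A second list of 70 genes that act in the same pathways was examined beside the members, of which 59 passed the minimum level. Between high and low pyraclostrobin 12 of them were called, 8 higher and 4 lower (20.3%, beside 21.7% of all genes). Pir, the gene of pirin and a known NRF2 target, was at 12.3 and 13.8 CPM with DMSO and at 15.3, 17.9, 26.2 and 28.3 CPM with pyraclostrobin (0.72 ± 0.13, adjusted p = 0.00149). Its high pair stood above every other library, as for Nqo1. Slc7a11, also on this list, went the other way but was not called in any comparison. It was at 21.7 and 34.1 CPM with DMSO and at 17.8, 23.3, 6.89 and 5.08 CPM with pyraclostrobin. Trifloxystrobin at 100 nM gave 8.85 CPM. Of the genes of glutathione turnover, Ggt1 (0.80 ± 0.16, adjusted p = 0.00336) and Ggct (0.75 ± 0.18, adjusted p = 0.00903) were higher, with Ggct at 9.90 and 12.2 CPM with DMSO and at 10.3, 12.7, 18.3 and 20.1 CPM with pyraclostrobin. The methionine sulfoxide reductase Msra fell by 0.77 (SE 0.18, adjusted p = 0.00720), and Pgls, which follows G6pdx in the pentose phosphate pathway, fell by 0.64 (SE 0.11, adjusted p = 0.00149). Slc3a2, the heavy chain of the cystine transporter, was called only against DMSO, where it fell by 0.70 (SE 0.21, adjusted p = 0.0465). At 30 to 300 nM of picoxystrobin, 8 of the 59 differed from DMSO, 3 higher and 5 lower (13.6%, beside 19.2% of all genes), among them Ggt1 and Pgls, which were lower.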

How the data were processed

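From C17.2α cells lysed 24 h after addition of DMSO or a strobilurin, the authors made SENSE total RNA libraries (Lexogen), sequenced them from a single end on a NextSeq500, and counted reads per gene with htseq-count. They deposited raw counts per gene for each of 16 libraries, with no normalization or pooling. The submitters' processing notes name Bowtie2 2.3.2.2 and mm10, whereas the annotation and the strand setting are not given in the sources used here. PCR duplicates were not marked by molecular identifiers, so intervals cover counting and library spread only.

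Libraries were grouped by the labels. Counts of 15 libraries (median total 16180381) were normalized by TMM and tested in edgeR 4.0.16 (glmQLFTest, quasi-likelihood, R 4.3.3) for the 14004 genes with a mean CPM of 1 or more, with Benjamini-Hochberg adjustment over all of them. A first model had 1 level per compound (picoxystrobin at 1000 nM apart, since the study's heatmap of these libraries does not show it). A second split pyraclostrobin and trifloxystrobin into low (30 and 100 nM) and high (300 and 1000 nM) levels, and another model compared compounds over 11 libraries with concentration as a block. The common dispersion was 0.0106. A prior count of 2 was added for log2 levels. In the correction for GC content and length, each library's trend (natural splines, 4 degrees of freedom, on the longest GENCODE M21 transcript) entered as an offset, and GC content was known for 99.5% of tested genes.

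The members and both lists were chosen with earlier results of these data known, as was the split of pyraclostrobin concentrations. Full values are given for the 14 members with the largest called change, of 19 called in any of 10 comparisons, and for at most 6 genes of the second list. Levels of Slc7a11, which was not called, were added to these. In simulated counts for the high-against-low comparison of pyraclostrobin over 14004 genes, 56% of genes changed 1.5-fold and 88% of those changed 2-fold were called, and 5 of 149 calls were unchanged genes. For azoxystrobin against DMSO these shares were 24% and 63%. Unchanged genes were 10 of 150, 10 of 151 and 15 of 154 calls for pyraclostrobin, picoxystrobin and trifloxystrobin against DMSO. They were 27 of 184 calls for pyraclostrobin against trifloxystrobin at matched concentrations. Alternatives were DESeq2 1.42.0, RLE size factors, a minimum of 10 CPM or none, the correction above, other placements of the repeated library and of picoxystrobin at 1000 nM, no concentration block, and each library left out in turn. Python 3.11.15, pandas 2.3.3 and matplotlib 3.10.9 were used for tables and plots.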

Additional observations from a re-analysis of the deposited data

Results flagged for a closer look

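The high-against-low change differed between pyraclostrobin and trifloxystrobin, tested as the difference of both changes in edgeR, in 10 members. The log2 difference was 0.6167 for Gclc, 0.5609 for Prdx1, 0.5456 for Me1, 0.5374 for Srxn1, 0.531 for Glrx, 0.4597 for Sod2, 0.4131 for Fth1 and 0.4049 for Gclm. It was -0.4972 for Tkt and -0.3962 for Txn2.

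Within the 4 libraries of a compound, 1 library stood apart from the others in 6 of 117 groups of 4 examined (the gap to the nearest library exceeded Dixon's 95% critical share of the range), where chance gives about 1 in 20. Picoxystrobin at 1000 nM was high for Mafg (56.58 CPM) and Prdx5 (43.18 CPM). Pyraclostrobin was low for Hmox1 at 30 nM (54.28 CPM) and for Txnrd2 at 1000 nM (4.224 CPM), and high for Pgd at 100 nM (98.58 CPM). Trifloxystrobin at 100 nM was high for Txnrd2 (6.193 CPM).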

How the results depend on the processing

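No paired analysis was possible because the labels number only the control libraries as replicates. Compounds share concentrations, which stood as a block in the matched comparisons. No named change turned sign under any alternative run. Between high and low pyraclostrobin, the 13 members called became 17 with the GC and length correction. Against DMSO, the 3 members called for pyraclostrobin became 5 with DESeq2, 1 with the GC and length correction, 0 with picoxystrobin at 1000 nM placed in its compound's group, 0 with the repeated library counted as azoxystrobin and not as a control, 20 with 300 and 1000 nM only, 0 with 30 and 100 nM only (these last 2 chosen after seeing the data), and 0 to 10 with each library left out. The 7 called for picoxystrobin became 0 with the GC correction, 0 with its 1000 nM library included, and 0 to 5 in the omissions. The 13 called between high and low pyraclostrobin ranged from 3 to 11 in the omissions, and the 10 whose change differed from trifloxystrobin from 1 to 11. At matched concentrations, pyraclostrobin against trifloxystrobin went from 0 to 2 with DESeq2, 3 with no filter and 0 to 8 in the omissions. Pyraclostrobin against picoxystrobin went from 0 to 6 with DESeq2, 6 with no filter, 7 with no concentration block and 0 to 4 in the omissions. Picoxystrobin against trifloxystrobin went from 4 to 8 with DESeq2, 8 with no filter, 8 with no block, 0 with the GC correction, 0 with picoxystrobin at 1000 nM included and 0 to 8 in the omissions. Over all genes, these 3 comparisons called 24, 4 and 1054 genes, and 514, 934 and 1532 with DESeq2. With no filter they called 1554, 1777 and 1965 of 30839 genes. With no block the last 2 called 1885 and 1832 genes. Picoxystrobin against DMSO went from 2685 to 218 genes with the GC correction. Pyraclostrobin against DMSO went from 1204 genes to 1835 with DESeq2 and 621 with the GC correction. It went to 184 genes with picoxystrobin at 1000 nM placed in its compound's group. The cause of these shifts was not tested. For the genes named in full, 220 of 333 alternative values stayed on the same side of the threshold and 113 no longer passed it. Where an omission left a level with 1 library, that library was assumed to vary like the others. Counting error weighs most on the members with the fewest reads (Gpx4, Ftl1, Txnrd2 and Nqo1).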
